A study of Mus musculus with 4 samples.

Results

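Surface colonocytes rich in Aqp8 and Clca4a were examined in single-cell RNA counts of mouse colon. They were 1358 of the 13158 cells that passed the quality limits, 675 of 6914 in batch 1 and 683 of 6244 in batch 2. A member had at least 1000 gene UMIs (unique molecular identifiers, each 1 captured transcript), 250 or more genes detected and no more than 25% of its UMIs from mitochondrial genes. It held at least 2 UMIs of the epithelial genes Epcam and Krt8 together and at least 5 of Aqp8 and Clca4a together. Cells with 2 or more of Cxcl5, Nos2, Duoxa2 and Ly6g detected were left out. So were cells with 5 or more Muc2 UMIs, more than 2 of Chga and Chgb, more than 1 of Mki67 and Top2a, any Ptprc, or 0.5% or more of their UMIs from S100a8 and S100a9. The members were thus selected on measured values of 16 genes, and the levels of these genes are given as a description, as are those of the other markers, Ly6m and Car4.

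Aqp8 encodes a water channel of absorptive cells, and Clca4a belongs to a family of secreted and membrane proteins known as calcium-activated chloride channel regulators. Absorptive colonocytes arise in the crypt, mature as they move up and are shed at the surface facing the lumen. Mature ones take up sodium, chloride, water and short-chain fatty acids, and carry a brush border under a coat of mucins. Jup codes for plakoglobin, which links cadherins to keratin in desmosomes and also sits in adherens junctions.

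The study pooled colon cells of C57/BL6J mice from 4 conditions in each of 2 batches, each condition stained with its own hashtag antibody. The conditions were JUP-KO mice given DSS (dextran sulfate sodium, which damages the epithelium of the colon), wild-type mice given DSS, untreated JUP-KO mice and untreated wild-type mice. The antibody features are named TG_DSS, TG_WT, Ctrl_DSS and Ctrl_WT, and the sources used here do not link these names to the antibody numbers. TG_DSS is JUP-KO with DSS and Ctrl_WT is untreated wild type either way, whereas TG_WT and Ctrl_DSS are untreated JUP-KO and wild type with DSS by name, and the reverse by number. Cells are therefore named by tag throughout. The knockout allele, the cells in which it acts, the DSS dose and days, the age of the mice and whether the batches are separate mice are not known from the labels, so p-values speak only for the spread among these sums, part of which may be technical.

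About 14000 cells were targeted per batch. Over all barcodes batch 1 held 133919905 gene UMIs and batch 2 held 95408149, and among kept cells 13 barcodes occurred in both. Members had a median of 10733 and 11597 UMIs per cell, against 16047 and 16311 in epithelial cells that passed the same gates with 0 or 1 UMI of Aqp8 and Clca4a (1692 and 927 cells, called low-Aqp8 cells here). Their median mitochondrial share was 8.19% and 5.60%, against 4.71% and 3.27% in low-Aqp8 cells. Of the 1136 and 921 cells that met both epithelial and Aqp8 plus Clca4a limits, 201 and 127 failed only through the 4 inflammation genes. These are called inflamed surface cells here.

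Tags were hard to call on the members. A single tag was called on 104 and 94 of them, which is 15.4% and 13.8%, and 546 and 577 stayed untagged. The median count of the called tag in members was 527 and 376.5 for TG_DSS, 63.5 and 169.5 for TG_WT, 281 and 183 for Ctrl_DSS and 280 and 76.5 for Ctrl_WT. In leukocytes with the same call it was 1003 and 1001, 972 and 887, 1142 and 1398.5, and 719.5 and 485 in that order. A second rule, based on the highest tag, called 51 and 40 members and gave 46 and 38 of them the same tag. It kept the call of 35 of 42 and 19 of 22 TG_WT members, but only 4 of 35 and 6 of 24 of TG_DSS. For Ctrl_DSS it kept 3 of 13 and 8 of 38, and for Ctrl_WT 4 of 14 and 5 of 10. Statements about tags rest on these few cells, and statements about the members as a population rest on all 1358.

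The label was checked against the markers. Aqp8 stood at 1103 CPM (a gene's UMIs scaled to the depth of the set) in members of batch 1 and 1970 CPM in batch 2, against 4.0 and 6.3 CPM in low-Aqp8 cells. Clca4a stood at 929 and 1559 CPM in members, against 6.3 and 4.7 CPM in low-Aqp8 cells. Both genes were chosen on. Ly6m, a Ly6 family gene, stood at 229 and 527 CPM in members, against 6.1 and 5.1 CPM in low-Aqp8 cells. Car4, a membrane-bound carbonic anhydrase, stood at 2117 and 2888 CPM in members, against 144 and 280 CPM in low-Aqp8 cells. All 4 markers were higher in members than in low-Aqp8 cells of both batches. They were not particular to the members. Summed, they stood at 4378 and 6944 CPM in members and at 7953 and 10010 CPM in inflamed surface cells, where only Aqp8 was not higher.

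Car1, the cytosolic carbonic anhydrase that marks colonocytes as a class, separated the sets far less. Its level was 22570 and 25861 CPM in members, against 15483 and 20533 CPM in low-Aqp8 cells. Thinned to 2000 UMIs, 89.8% and 93.1% of members, 63.6% and 76.1% of low-Aqp8 cells and 45.6% and 36.9% of leukocytes held a Car1 UMI, so the low-Aqp8 cells are a mixed epithelial set. Comparators selected on Car1 are therefore given where they change a count.

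**Figure D1:**
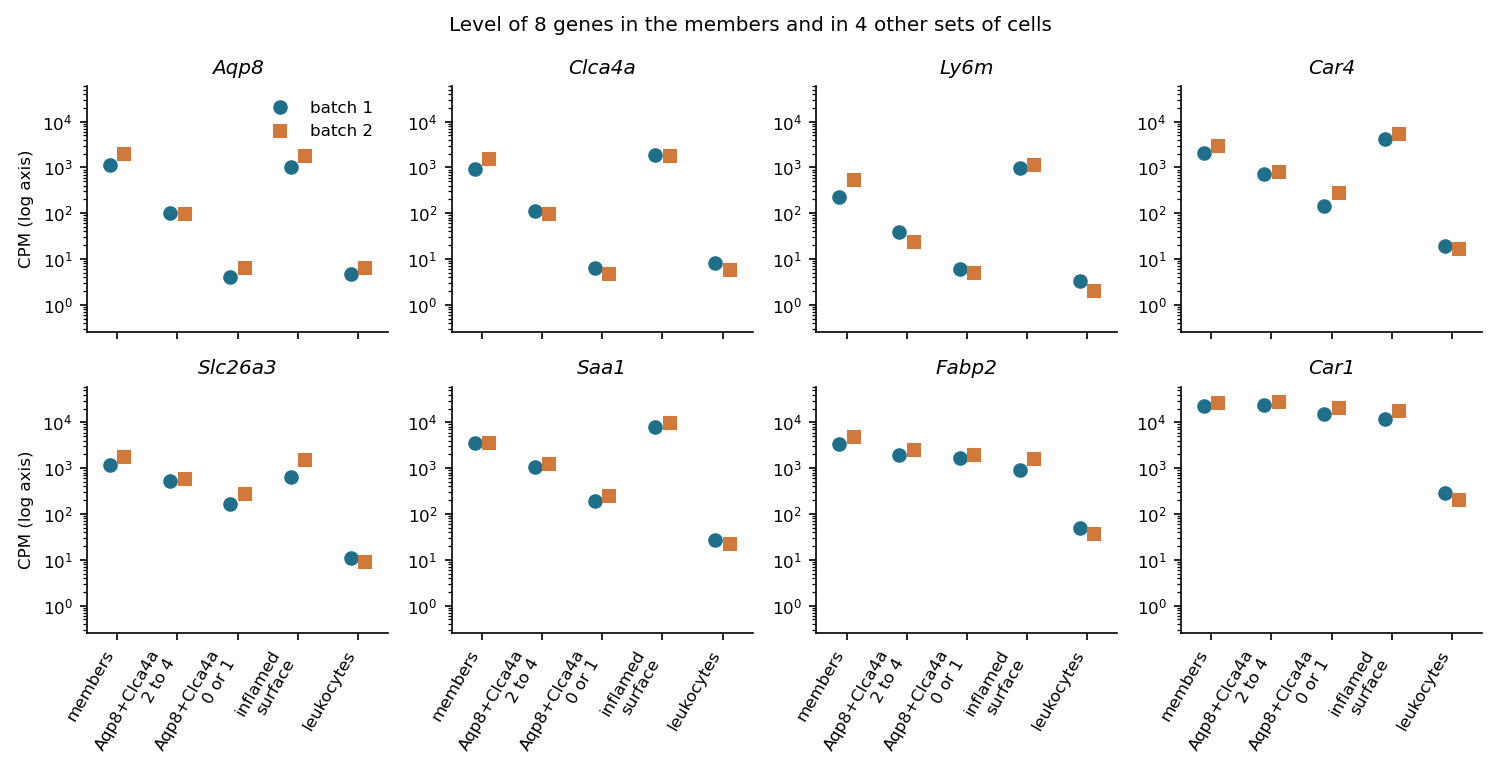
Level in CPM (log axis) of 8 genes in the members and in 4 other sets of cells, with 1 point per batch. Aqp8, Clca4a, Ly6m, Car4, Slc26a3 and Saa1 step down over cells with 2 to 4 and then 0 or 1 UMIs of Aqp8 and Clca4a, while Car1 is at 11853 CPM or more in every epithelial set.

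Shares of cells with a UMI were compared at 1 depth, since free RNA in droplets gives UMIs to cells that do not express a gene. With each cell thinned to 2000 UMIs, Ly6m was detected in 27.0% and 39.3% of members, against 0.986% and 1.25% of low-Aqp8 cells and 0.821% and 0.344% of leukocytes. The unthinned shares of members were 43.9% and 60.2%. Car4 was detected in 80.9% and 88.5% of thinned members, against 15.0% and 25.5% of low-Aqp8 cells and 4.45% and 3.67% of leukocytes. Inflamed surface cells exceeded members for both genes, with Ly6m detected in 65.7% and 53.5% and Car4 in 91.4% and 92.9% of them. The leukocytes, which should lack both genes, had a median of 3222 and 4446 UMIs, and thinning left out 11 and 4 members. The share of low-Aqp8 cells with Car4 was thus above that background. Their share with Ly6m was close to it in batch 1 and higher than it in batch 2, where it rested on 11 of 882 cells against 6 of 1746 leukocytes.

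Markers of other epithelial types were low in the members. The 7 goblet markers, of which Muc2 was limited by the rule, summed to 323 and 442 CPM in members, against 712 and 753 CPM in low-Aqp8 cells and 460.1 and 479.9 CPM in leukocytes. The 6 tuft cell markers summed to 7.79 and 2.64 CPM in members. The 7 enteroendocrine markers summed to 8.60 and 8.23 CPM in members, against 174 and 252 CPM in low-Aqp8 cells. Lgr5, the stem cell gene, stood at 6.42 and 1.69 CPM in members and 8.72 and 3.78 CPM in low-Aqp8 cells, and Olfm4 was at 0 in members.

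Ly6g, best known as a neutrophil surface protein, was among the genes that limited membership and was still present. It stood at 171 and 172 CPM in members, against 10.6 and 30.9 CPM in low-Aqp8 cells and 62.8 and 38.1 CPM in leukocytes. The neutrophil list, which holds S100a8, S100a9 and 5 further genes but not Ly6g, summed to 105 and 99.0 CPM in members and 94192 and 66515 CPM in leukocytes, with Mmp8 at 0 in members. In 381 and 383 members exactly 1 of the 4 inflammation genes was detected. Ly6 genes are a family of similar sequences, and the labels do not say how reads shared between them were counted.

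The upstream sequences of 3 genes that define or lead this profile are shown because the genes are high together in the same cells. They are the 250 bases before the RefSeq start of Aqp8 (chr7:123462044-123462293), Car4 (chr11:84957504-84957753) and Slc26a3 (chr12:31437969-31438218), build GRCm38.p6, all on the plus strand. Capitals mark matches, on either strand, to 6 short motifs. These are GTTAAT for HNF1, CAAAGG for HNF4, TTTATT for CDX, AGATAA for GATA factors, CCACCC for KLF factors and TATAAA for the TATA box.

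Aqp8: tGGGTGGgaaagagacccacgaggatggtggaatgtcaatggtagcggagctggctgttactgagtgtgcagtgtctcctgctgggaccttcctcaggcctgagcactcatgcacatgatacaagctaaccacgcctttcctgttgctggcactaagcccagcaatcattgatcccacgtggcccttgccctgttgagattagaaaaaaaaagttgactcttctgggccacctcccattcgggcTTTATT
Car4: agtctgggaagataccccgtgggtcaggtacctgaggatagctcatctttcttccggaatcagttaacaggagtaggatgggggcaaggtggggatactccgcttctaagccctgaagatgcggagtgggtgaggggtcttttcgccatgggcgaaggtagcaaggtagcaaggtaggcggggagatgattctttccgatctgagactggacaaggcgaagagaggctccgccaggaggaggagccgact
Slc26a3: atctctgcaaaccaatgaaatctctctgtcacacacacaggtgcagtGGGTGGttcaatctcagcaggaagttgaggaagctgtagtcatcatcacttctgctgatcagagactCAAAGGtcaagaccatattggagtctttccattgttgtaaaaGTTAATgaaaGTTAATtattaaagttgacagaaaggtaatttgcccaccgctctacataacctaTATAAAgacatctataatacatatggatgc

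The Slc26a3 stretch held GTTAAT at 94 to 89 and at 84 to 79 bases before the start, CAAAGG at 136 to 131, TATAAA at 30 to 25, and CCACCC on the opposite strand at 203 to 198. The Aqp8 stretch held TTTATT in its last 6 bases and CCACCC on the opposite strand at 249 to 244. The Car4 stretch held none of the 6. Of 32851 promoters of the same length, 6.43% held GTTAAT, 17.6% CAAAGG, 18.1% TTTATT, 9.99% AGATAA, 28.1% CCACCC and 12.4% TATAAA, so each match is a common one. Aqp8 spans positions 123462291 to 123468004 of chromosome 7 in mm10, Car4 84957786 to 84966044 of chromosome 11, and Slc26a3 31390871 to 31473917 of chromosome 12. The printed Slc26a3 stretch lies inside that gene's span, and the Aqp8 stretch ends just past the start of its span. The RefSeq starts used for the sequences thus differ from the starts of these spans. Clca4a lies on the minus strand of chromosome 3 from 144952480 to 144975045.

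The limit of 5 UMIs cut a continuous range. The sum of Aqp8 and Clca4a had a median of 17 UMIs in members of batch 1 and 28 in batch 2. Just inside the limit, at 5 or 6 UMIs, were 82 and 65 members, and just outside, at 3 or 4, were 96 and 81 cells. Car4 stood at 1109 and 1347 CPM just inside and 959 and 1018 CPM just outside. Slc26a3 stood at 688 and 781 CPM just inside and 716 and 662 CPM just outside.

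Within the members, several surface genes followed the Aqp8 and Clca4a count. From 5 to 9, 10 to 19, 20 to 49 and 50 or more UMIs, Ly6m stood at 87.0, 112, 206 and 753 CPM in batch 1 and at 84.2, 131, 324 and 1114 CPM in batch 2. Fabp2, a fatty acid binding protein of enterocytes, stood at 2069, 2309, 3717 and 6928 CPM in batch 1 and at 2805, 3235, 4088 and 7487 CPM in batch 2. Slc26a3 stood at 708, 1048, 1446 and 1623 CPM in batch 1 and at 991, 1206, 2139 and 2189 CPM in batch 2. Each of these genes was higher in every higher bin.

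Pigr, which carries IgA across the cell, ran the other way. It stood at 826, 637, 509 and 244 CPM in batch 1 and at 755, 664, 452 and 291 CPM over the same bins in batch 2. Aqp4, a basolateral water channel, stood at 372, 211, 112 and 21.0 CPM in batch 1 and at 174, 201, 71.1 and 47.6 CPM in batch 2. Bins with more Aqp8 and Clca4a had median depths between 9283 and 10931.5 UMIs in batch 1, and the highest bin of batch 2 was the deepest at 14136.5 UMIs.

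**Figure D2:**
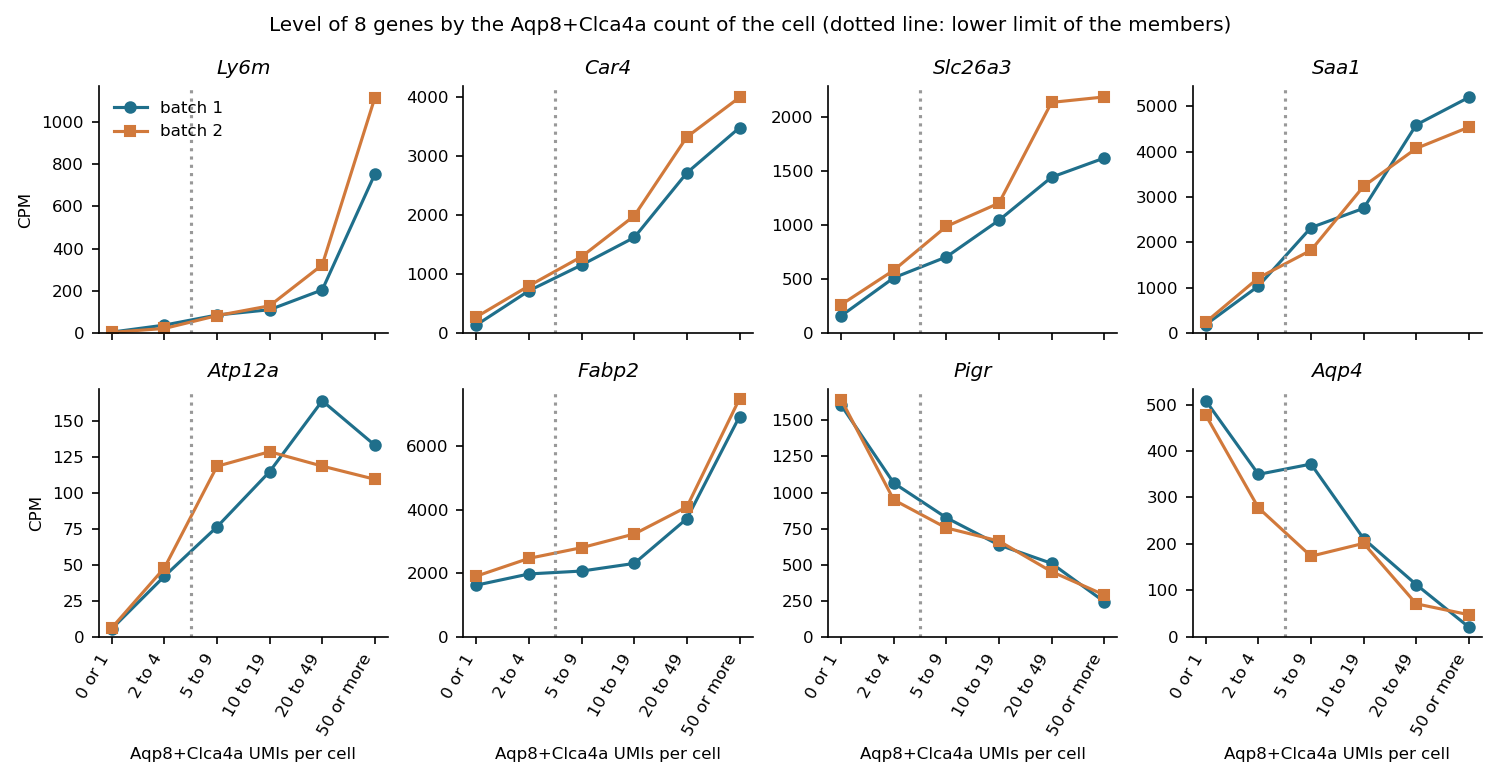
Level in CPM of 8 genes (vertical axes from 0) in cells grouped by their Aqp8 plus Clca4a UMIs, with 1 line per batch and the lower limit of the members as a dotted line. Ly6m and Fabp2 are highest in cells with 50 or more UMIs, and Pigr and Aqp4 are lowest in the highest bin.

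Aqp8 and Clca4a did not mark exactly the same cells. Both were detected in 486 and 527 members, Aqp8 alone in 78 and 86, and Clca4a alone in 111 and 70. Members with more Aqp8 than Clca4a UMIs (365 and 403) are called Aqp8-rich here and those with more Clca4a (299 and 262) Clca4a-rich. The genes that follow were picked after their values were seen, and no test was made.

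Fxyd4, a regulator of the sodium pump, leaned to the Aqp8-rich side. It stood at 267 and 502 CPM in Aqp8-rich members, against 18.96 and 21.2 CPM in Clca4a-rich members. Atp12a, a proton and potassium pump, stood at 180 and 168 CPM in Aqp8-rich and 58.9 and 46.4 CPM in Clca4a-rich members. Tgm3, a transglutaminase, stood at 1426 and 1216 CPM in Aqp8-rich and 394 and 464 CPM in Clca4a-rich members. Car4 was also higher in the Aqp8-rich, at 2793 and 3692 CPM, against 1356 and 1709 CPM.

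Other genes leaned to the Clca4a-rich side. Ly6m stood at 178 and 423 CPM in Aqp8-rich and 291 and 632 CPM in Clca4a-rich members. Slc12a2, a sodium, potassium and chloride cotransporter of secreting cells, stood at 22.9 and 4.64 CPM in Aqp8-rich and 87.2 and 29.3 CPM in Clca4a-rich members. Cldn10, a tight junction claudin, stood at 0 and 0.927 CPM in Aqp8-rich and 24.8 and 32.9 CPM in Clca4a-rich members. The widest log2 ratios of (CPM + 10) toward this side were those of Fabp5 (−4.61 and −5.50) and the chemokine gene Ccl20 (−2.66 and −5.46). They rested on a few cells, since 10 members held 98.2% and 99.4% of all Fabp5 UMIs and 99.3% and 99.4% of all Ccl20 UMIs. Krt20, a keratin of mature colonocytes, was near even, at 1530 and 1916 CPM in Aqp8-rich and 1608 and 2370 CPM in Clca4a-rich members.

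**Figure D3:**
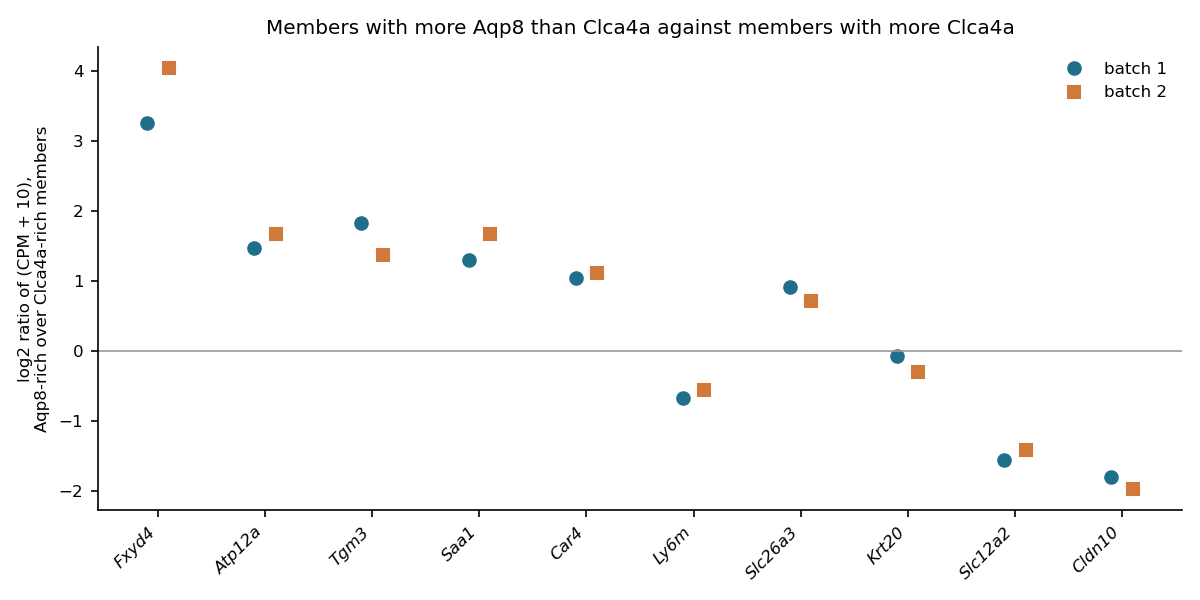
Log2 ratio of (CPM + 10) in Aqp8-rich over Clca4a-rich members for genes picked after their values were seen, with 1 point per batch. Fxyd4 lies at 3.26 and 4.04, Ly6m at −0.67 and −0.57, and Cldn10 at −1.80 and −1.97.

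Members were then set against low-Aqp8 cells of the same tag and batch, which gave 8 pairs of summed counts. Because the limit on Aqp8 and Clca4a made these sets, genes that follow Aqp8 along one course of maturation differ by construction, and the counts describe how far the profiles are apart. Of 7572 genes tested, 2957 (39.1%) passed an adjusted p of 0.05 by edgeR's quasi-likelihood test, 1573 (20.8%) higher and 1384 (18.3%) lower in members. These shares are the background for every list here, and the median log2 difference over all genes was −0.00. The low-Aqp8 cells also held plasma cell transcripts, 512 and 3841 CPM over 5 B and plasma cell markers, against 7.22 and 44.2 CPM in members.

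The genes with the smallest adjusted p on the higher side were Slc26a3, Rhoc, Rbp2, Slco2a1, Eps8, Slc15a1, Cyp2d34, Pmp22, Myo15b, Myzap and Snrk beside Car4, which the markers name. Slc26a3, the chloride and bicarbonate exchanger of the apical membrane, ranged from 689 to 1525 CPM over the 8 sums of members (median 933), against 128 to 339 CPM (median 176) in low-Aqp8 cells. The sets did not overlap, and the difference was 2.47 on the log2 scale (SE 0.16, edgeR adjusted p = 1.02e-08). Slc15a1, the peptide transporter of the apical membrane, ranged from 33.9 to 201 CPM (median 51.2) in members, against 0.568 to 7.60 CPM (median 3.44). It was 4.08 higher on the log2 scale (SE 0.28, edgeR adjusted p = 1.77e-08), above the 2.91 to 3.57 of 7 of the 8 pairs taken singly, and 3.101 after thinning to 2000 UMIs. The pair of Ctrl_WT batch 2, with 10 members, was at 5.46.

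Apical sodium, chloride and bicarbonate transport was mostly higher in members. Of 11 listed genes tested, 8 were higher and 1 was lower, with a median log2 difference of 1.13. Scnn1a, a subunit of the epithelial sodium channel, ranged from 41.4 to 169 CPM (median 85.1) in members, against 11.6 to 25.1 CPM (median 19.8) in low-Aqp8 cells. Slc9a2 and Slc9a3, the sodium and proton exchangers, were 1.61 (SE 0.14) and 1.52 (SE 0.25) higher on the log2 scale. Cftr, the chloride channel of secretion, was the lower one, at 14.1 to 105 CPM (median 46.7) in members and 59.5 to 185 CPM (median 128) in low-Aqp8 cells, and its ranges overlapped.

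Pump and potassium genes split. Of 12 tested, 3 were higher, 4 were lower and 5 did not pass. The higher ones were Atp12a, Fxyd4 and the potassium channel gene Kcnk5. Atp12a ranged from 24.4 to 296 CPM (median 56.4) in members, against 0 to 8.24 CPM (median 1.90). The lower ones were Slc12a2 (−1.44), Kcnq1 (−1.38), Kcne3 (−1.54) and Kcnn4 (−2.09 on the log2 scale), the cotransporter and potassium channel subunits used in chloride secretion. Against comparators with at least 10 Car1 UMIs and under 5 immunoglobulin UMIs, a set chosen after the data were seen, 35.4% of 7174 genes passed, 18.4% higher and 17% lower. Of the pump and potassium genes 3 were then higher and 1 lower of 11, and Slc12a2 was at −0.38 (edgeR adjusted p = 0.473).

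Water channels and carbonic anhydrases other than Aqp8 and Car4 showed 0 higher and 2 lower of 7 tested. Aqp4 ranged from 39.0 to 680 CPM (median 113) in members, against 142 to 721 CPM (median 387) in low-Aqp8 cells. It was lower by 1.27 on the log2 scale within every one of the 8 pairs. Car1 did not pass, at 0.32 on the log2 scale (SE 0.29, edgeR adjusted p = 0.412).

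Brush border genes were nearly all higher. Of 16 tested genes 15 were higher and 0 lower, with a median log2 difference of 1.12. Eps8, which caps and bundles actin in microvilli, ranged from 274 to 508 CPM (median 412) in members, against 51.9 to 131 CPM (median 78.2). Ceacam20, Cdhr2, an adhesion protein between microvilli, and Muc3, a membrane mucin, were 2.15, 1.71 and 1.51 higher on the log2 scale. Lypd8, a secreted protein that keeps bacteria off the surface, ranged from 8312 to 15350 CPM (median 11225) in members, against 3886 to 8090 CPM (median 5520).

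Surface and shedding genes followed. Of 18 tested, 13 were higher and 1, Gsdmc3, was lower (−1.34). Tgm3 ranged from 354 to 1090 CPM (median 425) in members, against 39.4 to 166 CPM (median 67.4) in low-Aqp8 cells. Krt20, Emp1 and the transcription factor gene Klf4 were 1.47, 1.89 and 1.16 higher on the log2 scale. Guca2a, the precursor of the peptide hormone guanylin, was 0.90 higher (SE 0.18).

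The count of short-chain fatty acid and ketone genes depended on the comparators. Of 18 tested, 2 were higher, 4 were lower and 12 did not pass, a called share near the background. Against the Car1-selected comparators 1 was higher and 8 were lower, and with DESeq2's scaling in the same test 2 were higher and 6 lower. Bdh1, a mitochondrial dehydrogenase of ketone bodies, ranged from 29.2 to 69.1 CPM (median 50.3) in members, against 70.5 to 97.5 CPM (median 87.1), and was lower by 0.72 on the log2 scale. Slc16a1, which carries butyrate and lactate, was 0.45 higher, and 0.22 (edgeR adjusted p = 0.208) against the Car1-selected comparators.

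Host defence genes divided by kind. Of 10 antimicrobial and acute-phase genes tested, 4 were higher and 4 lower. Saa1, an acute-phase protein of the epithelium, ranged from 886 to 2766 CPM (median 2359) in members, against 35.3 to 373 CPM (median 126). It was 3.97 higher on the log2 scale (SE 0.34, edgeR adjusted p = 2e-07). Reg3g, a lectin that kills Gram-positive bacteria, ranged from 10.6 to 1044 CPM (median 209) in members, against 489 to 2827 CPM (median 1624). Pigr was lower by 1.37, and Duox2, which makes hydrogen peroxide at the apical face, was 2.29 higher.

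The MHC and interferon list was mixed. Of 14 genes, 8 were higher and 1, H2-Eb1 (−0.62), was lower, and against the Car1-selected comparators 7 were higher and 3 lower of 15. Iigp1, an interferon-induced GTPase outside the list, was lower by 2.08 on the log2 scale. Irf7, a transcription factor of the interferon response, ranged from 70.8 to 368 CPM (median 182) in members, against 14.7 to 107 CPM (median 29.3). Isg15 and Ifit1 were 1.82 and 1.92 higher on the log2 scale. Of the NF-kB and chemokine list 6 of 14 were higher and 1 was lower. Its widest value, 6.62 for the chemokine gene Ccl20, rested on few cells, since 10 members held 99.3% and 99.4% of its UMIs and it was higher in 4 of the 8 pairs.

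Junction genes were mostly higher in members. Of 22 tested, 18 were higher and 0 lower, with a median log2 difference of 0.74, and with DESeq2's scaling in the same test 18 were higher and 1 lower. Jup ranged from 15.2 to 130 CPM (median 85.3) in members, against 6.25 to 99.8 CPM (median 54.8) in low-Aqp8 cells. The ranges overlapped across tags, and Jup was higher in members within each of the 8 pairs (0.69 on the log2 scale, SE 0.17, edgeR adjusted p = 0.00305). Dsg2 and Dsp, the desmosomal partners of plakoglobin, were 1.10 and 0.90 higher. Cldn23 and Cldn4 were 1.62 and 2.76 higher, and Tjp1, a scaffold of tight junctions, was 0.96 higher.

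Transport of bile acids, iron, peptides and metals showed 6 higher and 4 lower of 17, with a median of 0.30. Against the Car1-selected comparators it was 4 higher and 7 lower, with a median of −0.23. Besides Slc15a1, Fabp2 (1.11), the bile acid importer Slc10a2 (1.57) and the iron oxidase Heph (1.39) were higher. Fabp6, the ileal bile acid binding protein, was lower by 3.68, and the metallothionein Mt1 by 1.19. Detoxification genes showed 9 higher and 4 lower of 20. The efflux pumps Abcg2 and Abcb1a were 1.66 and 1.15 higher, and the sulfotransferase Sult1a1 and the glutathione transferase Gsta4 were lower by 1.69 and 1.57. Against the Car1-selected comparators the detoxification list showed 6 higher and 7 lower.

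Among genes of the inflammasome, p38 signalling and cell death, 12 of 22 were higher and 1 was lower. Naip1, a sensor of bacterial flagellin and secretion systems, ranged from 160 to 255 CPM (median 188) in members, against 51.7 to 98.0 CPM (median 73.5). Casp8 and Gsdmd, the pore-forming gasdermin, were 1.07 and 0.80 higher. Pycard, the inflammasome adaptor, was the lower one, at 244 to 456 CPM (median 289) in members and 614 to 767 CPM (median 723) in low-Aqp8 cells.

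Calcium handling genes showed 6 higher and 0 lower of 9, among them the calcium pump gene Atp2b1 (1.17). Repair and fetal-like genes showed 10 higher and 2 lower of 16. Areg, a growth factor of the EGF family, was 1.39 higher, and Sprr1a 2.69 higher. The unfolded protein response list showed 1 higher and 5 lower of 13, with Pdia6 lower by 1.44 and Manf by 0.82. The immediate early list showed 3 higher and 3 lower of 15, and 10 higher and 1 lower against the Car1-selected comparators.

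Transcription factors of the epithelium showed 6 higher and 4 lower of 19. Hnf4a, a factor of absorptive identity, was 0.94 higher, ranging from 169 to 240 CPM (median 209) in members, against 79.3 to 134 CPM (median 114). Hes1 and Sox9, which mark the lower crypt, were lower by 1.00 and 0.81. Sox9 was at −0.24 (edgeR adjusted p = 0.493) against the Car1-selected comparators. Of the Ly6 and GPI-anchored list other than Ly6m, 4 of 10 were higher and 2 lower, with Ly6g6c 3.93 higher.

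**Figure D4:**
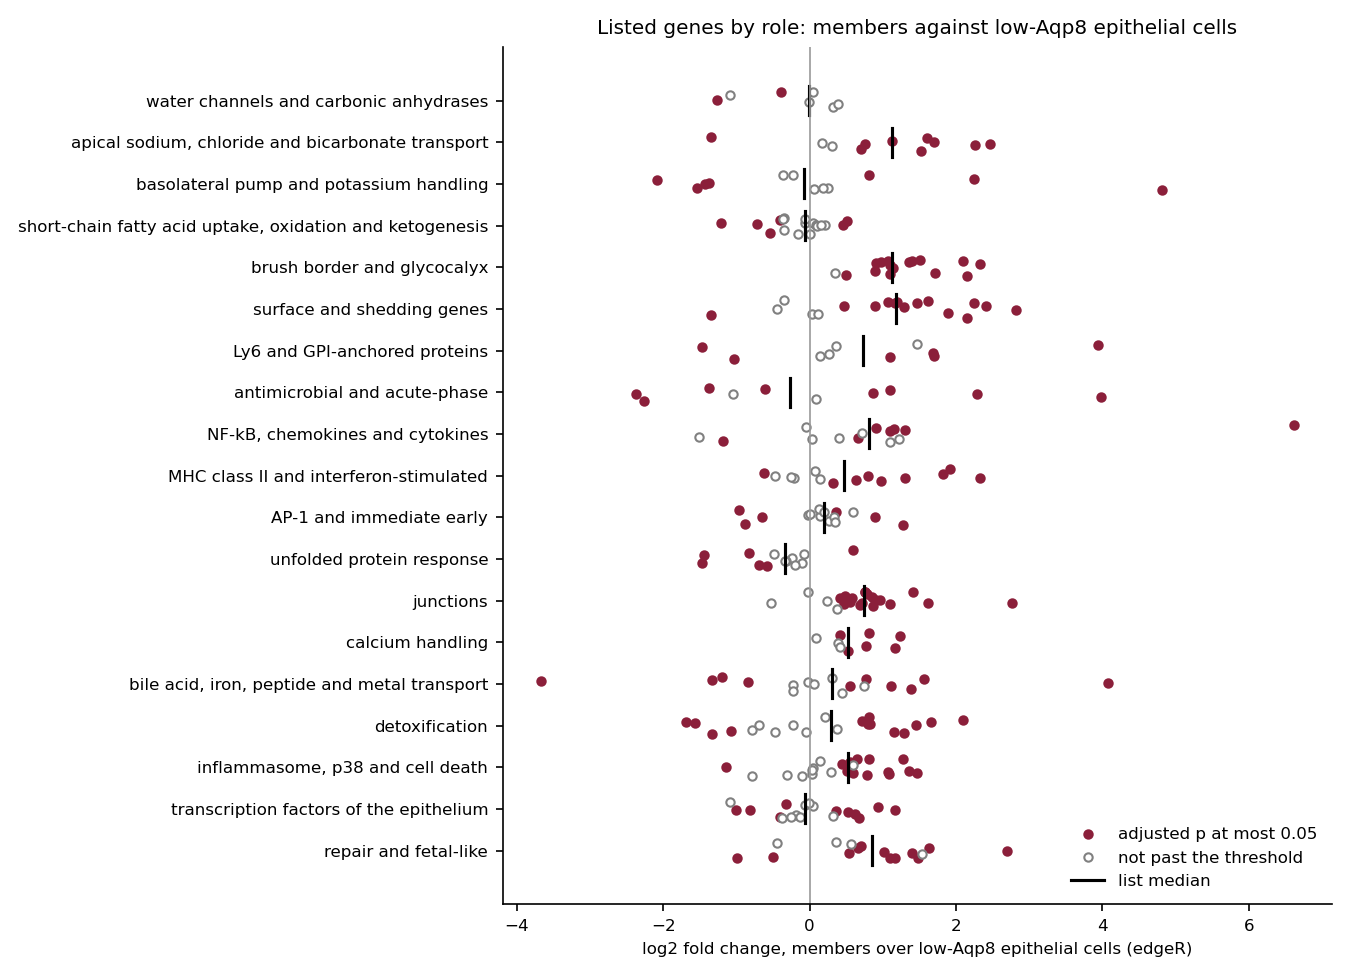
Log2 fold change, members over low-Aqp8 cells, of each gene in 19 lists by role, with filled points past an edgeR adjusted p of 0.05 and a bar at the list median. The brush border median is 1.12 and the junction median 0.74, and the median over all 7572 genes is close to 0.

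On the lower side, the genes with the smallest adjusted p were Jchain, Csrp2, Nts, Pycard, Sult1a1, Iigp1, Acat1 and the ribosomal protein genes Rps7, Rpl13, Rpl22, Rpl35 and Rpl35a. Jchain, the joining chain of antibodies, is a plasma cell gene, and its comparators held plasma cell markers at the levels given. Nts, the hormone neurotensin, was at most 1.76 CPM in members and at 1959 CPM in low-Aqp8 cells of TG_WT batch 1, against at most 18.6 CPM in the other 7 sums of low-Aqp8 cells. Rps7 ranged from 562 to 1595 CPM (median 933) in members, against 1735 to 3185 CPM (median 2404). The ribosomal protein genes were then counted as a set chosen after this was seen, and 79 of 80 were lower, with a median of −1.07. The same 79 of 80 count held against the Car1-selected comparators (median −0.89), and 0 of 80 were called against inflamed surface cells by edgeR.

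Inflamed surface cells share Aqp8 and Clca4a with the members and differ by the 4 inflammation genes. Because the limit on those 4 genes made these sets, genes that follow them differ by construction. The counts describe how far the profiles are apart. The comparison was chosen after the data were seen. It used untagged cells of both batches, whose condition is unknown, and TG_DSS cells of batch 1, the one tag with 10 or more cells of both kinds. Of 9034 genes tested, 838 (9.28%) passed by edgeR's quasi-likelihood test, 298 (3.3%) higher and 540 (5.98%) lower in members. Without the untagged cells of batch 1 the count was 377. Aqp8 itself stood at 1103 and 1970 CPM in members, against 1003 and 1753 CPM in inflamed surface cells.

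Some metabolic genes were higher in members than in inflamed surface cells. Fabp2 stood at 3420, 4659 and 4031 CPM in members (untagged batch 1, untagged batch 2 and TG_DSS), against 889, 1534 and 919 CPM. It was 1.74 higher on the log2 scale (SE 0.15, edgeR adjusted p = 1.97e-05). Selenbp1, a methanethiol oxidase, stood at 1049, 1047 and 1334 CPM in members, against 291, 523 and 294 CPM. Of 21 detoxification genes 10 were higher and 1 lower, and of 19 short-chain fatty acid and ketone genes 6 were higher and 2 lower, shares above the background of 3.3% for higher genes. Apical transport genes showed 0 higher and 1 lower of 13, brush border genes 1 higher and 4 lower of 17, and pump and potassium genes 1 higher and 2 lower of 11. Gal3st2c, Dcn, Mpst, Aldh1a1, Slc51a, Id3, Hsph1, Sult1a1 and Ces1g were also among the higher genes by rank. Dcn is a fibroblast marker and stood at 2.57, 38.2 and 28.2 CPM in members, against 0, 1.14 and 0 CPM.

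Genes of injury and defence were lower in members. Clca4b, a close relative of Clca4a, stood at 80.8, 28.9 and 7.06 CPM in members, against 1801, 1057 and 1272 CPM in inflamed surface cells. It was lower by 5.26 on the log2 scale (SE 0.28, edgeR adjusted p = 2.27e-07). Ly6c1 stood at 28.7, 17.9 and 15.9 CPM in members, against 555, 250.2 and 323 CPM. Duox2 stood at 42.6, 31.4 and 40.6 CPM in members, against 346, 219 and 353 CPM. Marcksl1, Tnip3, Tac1, Cd55, Csta1, Wfdc17, Clca3b, Tgm2 and Pmepa1 completed the lower genes by rank. Only genes lower in members within every pair of sums could be named.

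Of 16 repair and fetal-like genes 11 were lower and 1 higher in members than in inflamed surface cells. Ly6a was lower by 2.23, Anxa1 by 1.75 and Plaur, the urokinase receptor, by 2.77 on the log2 scale. Of 14 NF-kB and chemokine genes 8 were lower, of 22 inflammasome and cell death genes 8, of 13 unfolded protein response genes 7, and of 10 Ly6 genes other than Ly6m 6, with none higher in these lists. Junction genes showed 6 lower and 0 higher of 22, and Jup was at −0.01. Ly6m stood at 251, 569 and 161 CPM in members, against 1051, 1163 and 838 CPM.

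Members made up a varying share of epithelial cells. They were 4.83% and 5.83% of epithelial cells labelled TG_DSS in batches 1 and 2, 12.7% and 6.18% of TG_WT, 3.96% and 10.4% of Ctrl_DSS and 14.4% and 17.5% of Ctrl_WT. Among untagged epithelial cells they were 15.0% and 27.9%. The exact (Clopper-Pearson) 95% intervals were 3.39 to 6.65% and 3.77 to 8.54% for TG_DSS and 8.12 to 23.0% and 8.75 to 29.9% for Ctrl_WT. They cover counting error only. With 2 sums on each side the smallest exact permutation p is 0.333, so no test was made.

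Thinned to 2000 UMIs before the limit of 5 was applied, the shares were 1.29% and 3.48% for TG_DSS, 5.97% and 2.34% for TG_WT, 0.612% and 5.52% for Ctrl_DSS and 8.25% and 5.36% for Ctrl_WT. TG_DSS and TG_WT were each under Ctrl_WT in both batches, and every other pair of tags changed order between batches. In batch 2 the Ctrl_WT share rested on 3 of 56 cells (95% interval 1.12 to 14.9%). This interval overlaps that of TG_DSS, with 14 of 402 cells (1.92 to 5.77%), and that of TG_WT, with 8 of 342 cells (1.02 to 4.56%). Untagged cells, which hold most members, fall outside these shares, and the part of tag calling in them was not tested.

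The tagged members formed 8 sums of 35 and 24 cells (TG_DSS), 42 and 22 (TG_WT), 13 and 38 (Ctrl_DSS) and 14 and 10 (Ctrl_WT). Jup, the targeted gene, stood at 17.6 and 64.6 CPM in TG_DSS, 129 and 117 CPM in TG_WT, 43.1 and 15.2 CPM in Ctrl_DSS and 130 and 106 CPM in Ctrl_WT. All 4 sums of the DSS-named tags lay below all 4 of the others. TG_DSS and Ctrl_DSS are both DSS conditions by name and both JUP-KO conditions by antibody number. Which of DSS and genotype goes with the level was not tested. No contrast of Jup passed, with the smallest edgeR adjusted p at 0.434. The counts come from the 3' end of transcripts, and the labels do not say which part of the gene was deleted, so this level checks the tags only in part.

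The tags stood in 1 order for Ly6m in both batches and in different orders for Car4. Ly6m stood at 161 and 652 CPM in TG_DSS, 86.0 and 110 CPM in TG_WT, 157 and 339 CPM in Ctrl_DSS and 115 and 212 CPM in Ctrl_WT. Car4 stood at 1680 and 2214 CPM in TG_DSS, 1909 and 1059 CPM in TG_WT, 893 and 2060 CPM in Ctrl_DSS and 1295 and 2435 CPM in Ctrl_WT. Saa1 stood at 2766 and 2434 CPM in TG_DSS, 2326 and 886 CPM in TG_WT, 1709 and 1730 CPM in Ctrl_DSS and 2764 and 2393 CPM in Ctrl_WT. Within each batch Ly6m was highest in TG_DSS, then in Ctrl_DSS, Ctrl_WT and TG_WT, while the values of different batches overlapped between tags. In batch 1 TG_DSS and Ctrl_DSS were nearly level, at 161 and 157 CPM, so their order there is not resolved. As Ly6m is a marker of the members, no test is given.

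**Figure D5:**
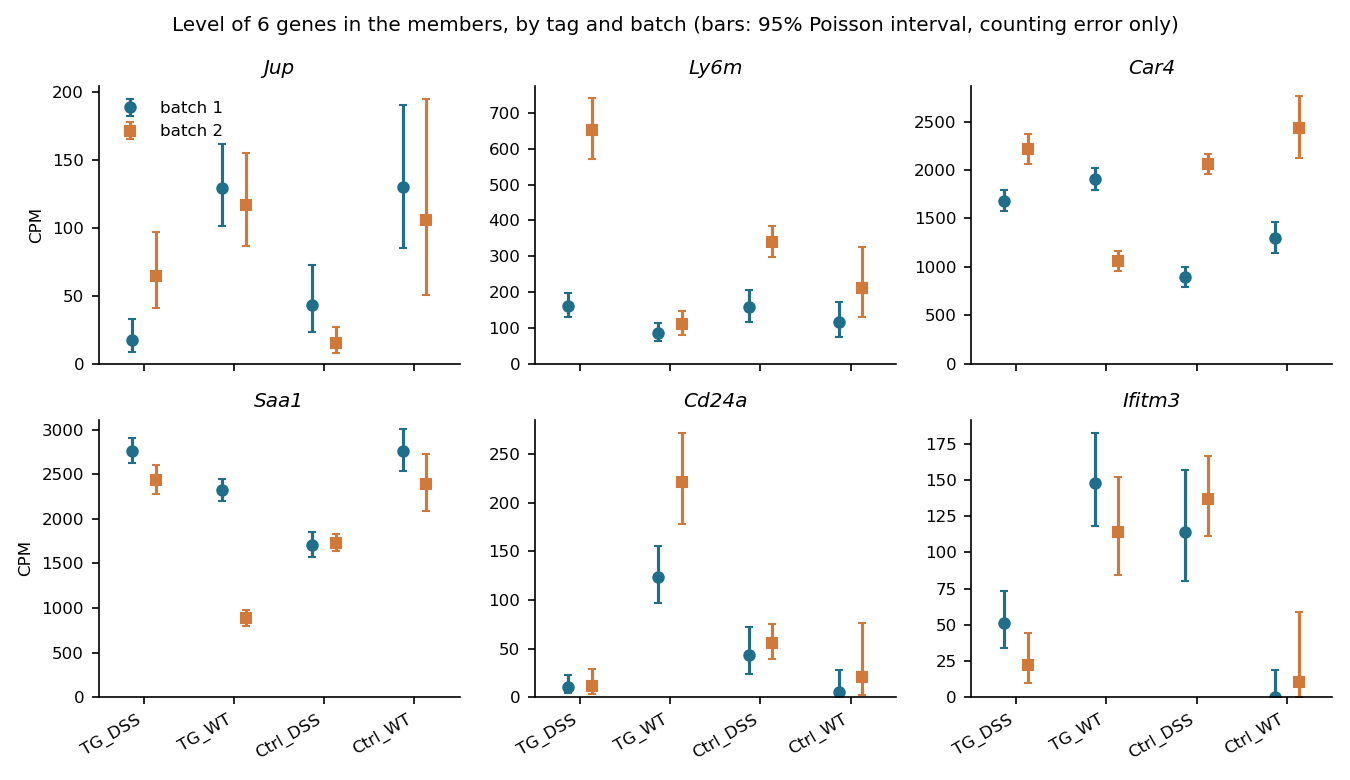
Level in CPM (axes from 0) of 6 genes in tagged members, with 1 point per tag and batch and bars for the 95% Poisson interval, which covers counting error only. Jup is lower in both DSS-named tags, which are the JUP-KO tags by antibody number, than in the others, but no contrast of Jup passed by edgeR. Cd24a is at 124 and 222 CPM in TG_WT and at most 55.3 CPM elsewhere.

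Few genes passed between tags. All contrasts share the same 8 sums, and 5481 genes were tested in each by edgeR's quasi-likelihood test. TG_DSS against TG_WT called 1 gene (0.0182%), Cd24a, with 216 genes at an unadjusted p under 0.05 and 5 called by DESeq2. The other 5 pairwise contrasts called 0 (0%). Their counts at an unadjusted p under 0.05 were 537 for Ctrl_DSS against Ctrl_WT, 471 for TG_WT against Ctrl_WT, 450 for TG_DSS against Ctrl_DSS, 234 for TG_WT against Ctrl_DSS and 301 for TG_DSS against Ctrl_WT. DESeq2 called 2, 8, 4, 2 and 3 genes in that order. If no gene differed, a share of about 0.05 of the 5481 genes would have an unadjusted p under 0.05. The counts of 216 and 234 are below that share.

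Cd24a, a glycosylated surface protein, stood at 10.6 and 11.2 CPM in TG_DSS, 124 and 222 CPM in TG_WT, 43.1 and 55.3 CPM in Ctrl_DSS and 5.00 and 21.2 CPM in Ctrl_WT. TG_DSS was lower than TG_WT by 3.90 on the log2 scale (SE 0.40, edgeR adjusted p = 0.00887, lower in both batches). Over the alternatives the adjusted p ran from 4.91e-12 to 0.9997, and the call was lost without TG_DSS batch 2. The highest value came when members with 5 or more UMIs of Fabp5 and Ccl20 were left out, a choice made after the data were seen, and the difference was then −1.76.

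Those Fabp5 and Ccl20-rich members were 8 and 10 cells in all, of which 1 in each batch was labelled TG_WT, 1 and 0 TG_DSS, 0 and 2 Ctrl_DSS and 0 and 0 Ctrl_WT. Fabp5, a fatty acid binding protein, stood at 1.76 and 2.81 CPM in TG_DSS, 667 and 1607 CPM in TG_WT, 9.24 and 654 CPM in Ctrl_DSS and 0 in both sums of Ctrl_WT. Across all members, 10 cells held 98.2% and 99.4% of its UMIs.

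The interaction, the difference TG_DSS minus TG_WT less the difference Ctrl_DSS minus Ctrl_WT, is the same quantity under both readings of the tags. It called 3 genes (0.0547%) by edgeR, with 595 at an unadjusted p under 0.05 and 11 called by DESeq2. They were Cd24a (−6.02, edgeR adjusted p = 0.0311), Fabp5 (edgeR adjusted p = 0.0334) and Ifitm3 (−6.97, edgeR adjusted p = 0.0334). Ifitm3, an interferon-induced membrane protein, stood at 51.2 and 22.5 CPM in TG_DSS, 148 and 114 CPM in TG_WT, 114 and 137 CPM in Ctrl_DSS and 0 and 10.6 CPM in Ctrl_WT. The Ctrl_WT sums held only 200069 and 94456 gene UMIs, so the levels of Cd24a and Ifitm3 there rest on very few UMIs. The sizes −6.02 and −6.97 depend on these near-floor levels. Without the Fabp5 and Ccl20-rich members the interaction called 0 genes by edgeR, and without Ctrl_WT batch 1 neither Cd24a, Fabp5 nor Ifitm3 passed.

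Genes with the smallest unadjusted p that did not pass are given as values. For TG_DSS against Ctrl_DSS these were Il1b, Cxcl2, Rpl12, F3 and Pmepa1. Il1b stood at 395 and 236 CPM in TG_DSS, 29.2 and 107 CPM in TG_WT, 9.24 and 9.67 CPM in Ctrl_DSS and 0 in both sums of Ctrl_WT (TG_DSS against Ctrl_DSS 5.15 on the log2 scale, edgeR adjusted p = 0.128). Il1b is also a neutrophil gene, and the 7 neutrophil markers, Il1b among them, summed to 694 and 332 CPM in TG_DSS members, 141 and 197 CPM in TG_WT, 49.3 and 87.0 CPM in Ctrl_DSS and 30.0 and 74.1 CPM in Ctrl_WT. Their part in the result was not tested.

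The other contrasts had these genes at the top. For TG_DSS against TG_WT they were Fabp5, Apoe, Cebpd and Cldn10 after Cd24a, and for TG_WT against Ctrl_WT they were Cd24a, Chka, Hspa1a, Apoe and Ifitm3. For TG_WT against Ctrl_DSS they were Apoe, Pmepa1, Cebpd, Cxcl2 and Cd24a, and for TG_DSS against Ctrl_WT they were Il1b, Hspa1a, Cebpb, Cyp2c68 and Ifrd1. Cebpd, a transcription factor gene, stood at 28.2 and 8.43 CPM in TG_DSS, 126 and 102 CPM in TG_WT, 24.6 and 15.2 CPM in Ctrl_DSS and 10.00 and 10.6 CPM in Ctrl_WT.

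Hspa1a, the inducible HSP70, stood at 214 and 289 CPM in TG_DSS, 280 and 297 CPM in TG_WT, 280 and 431 CPM in Ctrl_DSS and 50.0 and 31.8 CPM in Ctrl_WT. Ctrl_DSS was 2.98 above Ctrl_WT on the log2 scale (edgeR adjusted p = 0.11), and that contrast also had Chka, Ifitm3, Fgf12 and Ier2 at the top. Apoe stood at 1.76 and 30.9 CPM in TG_DSS, 67.1 and 270 CPM in TG_WT, 6.16 and 9.67 CPM in Ctrl_DSS and 0 in both sums of Ctrl_WT. The 5 fibroblast markers summed to 581 and 455 CPM in TG_WT members and to between 0 and 89.8 CPM in the other 6 sums, and the 7 macrophage markers reached 251 CPM in TG_WT of batch 2. Their part in the values of Apoe and Cd24a was not tested.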

How the data were processed

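Single-cell RNA was measured by 3' droplet sequencing of 4 hashtagged conditions in each of 2 batches. The deposited counts are UMIs per gene and barcode, made with Cell Ranger 7.0.0 and mm10 per the submitters' processing notes, with no normalization by the authors. No label names the annotation release. The members and the gene lists were chosen with earlier results of these data known.

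Cells were gated as described. A tag was called where its count passed the upper crossing of a 2-component mixture fit for that tag and batch. Cells over more than 1 tag threshold were left out of tag sums, and no doublet caller was run. Counts were summed per tag and batch over at least 10 cells and tested with edgeR 4.0.16 (R 4.3.3), quasi-likelihood, TMM scaling, Benjamini-Hochberg adjustment over all genes tested, with the batch, or the tag and batch, as a block. DESeq2 1.42.0, other filters, limits and tag rules, and omission of each sum were alternatives. The edgeR test was tried on simulated counts for TG_DSS against TG_WT and for members against low-Aqp8 cells. Tag calls and gates were not tried in this way. Genes were named by rule: the markers and Jup, up to 12 genes per direction with the smallest adjusted p that moved alike in both batches, the 5 with the smallest p where fewer than 3 passed, and members of the 19 lists, of which Pla2g2a and Ddit3 were not matched. 1 gene that the rule names is not reported here. Python 3.11.15 was used for the rest.

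The batches are shared libraries by the labels, so batch numbers pair the sums. Correlations of same-batch deviations between pairs of tags ran from −0.191 to 0.326 over 5490 genes. Intervals cover counting error only. Promoter sequences are from RefSeq, GRCm38.p6, in which Clca4a and Ly6m were not matched, and gene positions are from GENCODE M21.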

Additional observations from a re-analysis of the deposited data

Results flagged for a closer look

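Of 26 genes examined for a sum far from the others, 2 stood out, and chance alone gives about 1 in 20. Slc15a1 was 5.46 higher on the log2 scale in members than in low-Aqp8 cells of Ctrl_WT batch 2, against 2.91 to 3.57 in the 7 other pairs. Nts was at −9.59 in TG_WT batch 1, where the low-Aqp8 cells held 1959 CPM, against −2.29 to 0.33 in the 7 other pairs.

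The effect of DSS as named by the tags differed between TG and Ctrl members for 3 genes by the interaction test of edgeR. Cd24a gave −6.02 (SE 0.71), and over the alternatives its adjusted p ran from 1.35e-09 to 0.380. Fabp5 gave −18.3 (SE 2.26), a fitted value that depends on the prior count because both Ctrl_WT sums were at 0. Ifitm3 gave −6.97 (SE 0.94), with an adjusted p of up to 0.181 over the alternatives. Cd24a and Ifitm3 were also near the floor in the Ctrl_WT sums, so their sizes are uncertain as well. The calls of Cd24a and Ifitm3 were lost without Ctrl_WT batch 1, which held 14 cells, and without the Fabp5 and Ccl20-rich members. That of Fabp5 was lost without either Ctrl_WT sum, with 3 or more Aqp8 and Clca4a UMIs and without the replicate block (adjusted p 0.136, its highest).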

How the results depend on the processing

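Counts between tags moved with nearly every choice, and the cause was not tested. In the order TG_DSS against TG_WT, Ctrl_DSS against Ctrl_WT, TG_WT against Ctrl_WT, TG_DSS against Ctrl_DSS, TG_WT against Ctrl_DSS, TG_DSS against Ctrl_WT and the interaction, edgeR called 1, 0, 0, 0, 0, 0 and 3 genes. DESeq2 called 5, 2, 8, 4, 2, 3 and 11, and edgeR with no low-count filter 71, 57, 68, 85, 80, 32 and 103. With 10 or more Aqp8 and Clca4a UMIs the first 5 gave 24, 2, 15, 6 and 6 and the interaction 39. With 3 or more, TG_DSS against TG_WT gave 3, TG_WT against Ctrl_WT 2, and the 3 contrasts after it 1 each. At most 10% mitochondrial UMIs gave 65 for TG_DSS against TG_WT, 110 for TG_DSS against Ctrl_DSS and 22 for TG_WT against Ctrl_DSS, and sums of at least 20 cells gave 15, 13 and 4. These last settings left no contrast with Ctrl_WT, and the highest-tag rule left none at all. The 10% and 20-cell settings also left Ctrl_DSS with 1 sum, that of batch 2. Its batch 1 sum fell short, with 8 and 13 cells in that order. With 10 or more Aqp8 and Clca4a UMIs, Ctrl_DSS (7 cells in batch 1) and Ctrl_WT (6 in batch 2) kept 1 sum each. Omitting a sum likewise leaves its tag with 1. Counts for a tag with 1 sum have no replicate of that tag, so no conclusion is drawn from them. Without Fabp5 and Ccl20-rich members the counts were 0 for TG_DSS against TG_WT, 1 for TG_WT against Ctrl_DSS and 0 for the interaction. Leaving out each sum gave 1 to 29, 0 to 21, 0 to 33, 0 to 33, 2 to 27, 0 to 25 and 1 to 48. Without the replicate block, which pairs sums by batch, the counts were 1, 0, 0, 0, 0, 0 and 2. Cyp2c68 turned to 0.0120 for TG_DSS against Ctrl_WT with 10 or more Aqp8 and Clca4a UMIs, and had not passed.

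Members against low-Aqp8 cells gave 2957 genes, and 810 with the highest-tag rule, 1390 at 10% mitochondrial UMIs, 4946 with untagged sums added and 985 of 2039 tested after thinning to 2000 UMIs. Leaving out each sum gave 2397 to 2913, and no replicate block 2404. Of 516 values for single genes under alternatives, 514 kept direction and side of the threshold, and Jchain (0.0601) and Nts (0.817) lost the call with DESeq2. Against inflamed surface cells, 838 became 449 with DESeq2, 449 without the replicate block, where Hsph1 lost its call (0.0904), and 377 to 826 without each sum. The share of members, 12.4% and 18.98%, became 9.01% and 15.1% with 10 or more UMIs, 14.1% and 21.2% with 3 or more, 9.47% and 16.3% at 10% mitochondrial UMIs, 5.68% and 11.03% thinned, and 9.76% and 10.9% over all cells. Sums of 10 to 42 cells limit what contrasts between tags can show.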

Other observations

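Among the members, mitochondrial share varied with the sum as well as with the tag. Its median was 7.87% and 4.87% in TG_DSS, 12.4% and 4.55% in TG_WT, 5.93% and 6.58% in Ctrl_DSS and 10.5% and 17.1% in Ctrl_WT. A few cells carried most of several transcripts: the 10 highest members held 74.3% and 83.1% of the UMIs of S100g, a calcium binding protein, and 58.9% and 83.7% of those of Reg3b, against 7.99% and 7.26% for Car4. Il1b was likewise narrow, with 81.8% and 75.3% in 10 cells, and Ly6m stood between, with 27.0% and 17.2%.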
